A study of Mus musculus with 2 samples.

Results

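Nuclear receptors are transcription factors that bind DNA through a pair of zinc fingers, and many of them are switched by small fat-soluble ligands such as retinoic acid, thyroid hormone, steroids, fatty acids, oxysterols and bile acids. Some bind DNA as partners of a retinoid X receptor, some as pairs of themselves and some alone, and they recruit corepressors or coactivators to the genes they control. In the embryonic gut, retinoic acid made by the mesenchyme is known to act through the retinoic acid receptors during patterning and growth. The 41 genes described here are a set of listed symbols, matched to GENCODE M21 names, among 43346 genes with an Ensembl identifier. They do not make up the whole family, and other receptors of it were not analysed here. For the description they were placed in 5 classes by ligand: 6 retinoid receptors, 2 thyroid hormone receptors, 5 steroid receptors, 9 receptors for lipids, bile acids, vitamin D and foreign compounds, and 19 orphan receptors, for which no ligand is firmly established in the cell or the ligand is debated.

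RNA came from stomachs of B6NCrl mouse embryos at 14.5 days of gestation, with 1 stomach of a single pup behind each of 2 libraries collected on different days. Both libraries belong to 1 group, as biological replicates 1 and 2, so there was no second condition and no test between conditions. The RNA was extracted with a mirVana kit, started from 10 ng, held molecules longer than 200 nt and carried added spike-in RNAs, and the labels link a Smart-seq protocol. A stomach at this age is a whole organ of epithelium, mesenchyme, muscle, nerve and blood cells, in which fewer cells of a type and less RNA per cell cannot be told apart.

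Total expected counts, which are estimated read numbers per gene, were 25072242 in replicate 1 and 25599910 in replicate 2. All 8 stomach tissue markers were detected, led by Cym, a digestive protease gene of the young stomach. The libraries stood apart in 2 respects that touch the results. Pancreas markers summed to 765.58 TPM (a level per transcript length, scaled to a fixed total per library) in replicate 1 and to 47.35 TPM in replicate 2. The labels give mixed sex, yet the Y-linked gene Ddx3y had 2550 counts in replicate 1 and 0 in replicate 2, while Xist had 13.48 and 32037.76 counts, so sex and replicate cannot be told apart.

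A short stretch of the first zinc finger, called the P-box, takes part in telling DNA half-sites apart. The codons of that stretch are shown here to group the members by this sequence, not by the sites they bind. A search of the GENCODE M21 coding sequences for the finger's cysteine pattern found it in 39 of 41 members. The exceptions were Nr0b1 and Nr0b2, which are known to lack the DNA-binding domain. Each line gives 30 coding bases, 5′ to 3′, that run from 4 codons before the P-box through its 6 codons, and the capitals mark the 3 codons known to discriminate between half-sites.
Rara: ggggtcagcgcctgtGAGGGCtgtaagGGC
Rxrb: ggggtttacagctgcGAGGGCtgcaagGGT
Thra: cgctgtatcacttgtGAGGGCtgcaagGGC
Nr1h2: aacgtgctcagctgtGAAGGCtgcaaaGGC
Nr2f6: ggcgtgttcacctgcGAGGGCtgcaagAGT
Nr3c2: ggggtagtgacctgcGGCAGCtgcaaaGTC
Pgr: ggcgtgcttacctgtGGGAGCtgcaagGTC
Esr1: ggggtctggtcctgcGAAGGCtgcaagGCT
Esrra: ggtgtggcatcctgtGAGGCCtgcaaaGCC
Nr5a2: ggtctcctcacgtgcGAAAGCtgcaagGGT

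The stretches of Rxrb (chr17:34034033-34034062, plus strand, exon 4), Nr1h2 (chr7:44552100-44552129, minus strand, exon 5), Nr2f6 (chr8:71381035-71381064, minus strand, exon 1), Nr3c2 (chr8:77085615-77085644, plus strand, exon 2) and Pgr (chr9:8903696-8903725, plus strand, exon 2) each lie within 1 coding exon of the mm10 build. Those of Esr1 (chr10:4746756-4746785, plus strand, exon 4) and Esrra (chr19:6920085-6920114, minus strand, exon 2) do so too. In 15 of the 39 members, the stretch is split by an intron that lies between the coordinates. Among them are Rara (chr11:98966469-98968047, plus strand, exons 3 and 4), Thra (chr11:98756997-98760878, plus strand, exons 4 and 5) and Nr5a2 (chr1:136943426-136944985, minus strand, exons 4 and 5).

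Grouped by what those 3 codons encode, the 39 members fell into 8 groups. These are groups of coding sequence, and the DNA sites that each group binds were not tested. The largest held 27 members, among them all retinoid, thyroid hormone and lipid-sensing receptors, and its summed level was 313.36 TPM in replicate 1 and 302.79 TPM in replicate 2. That was 73.8% and 75.0% of the summed TPM of the 41 members. Nr3c1, Nr3c2 and Pgr, the listed steroid receptors with the type of P-box seen in the Nr3c2 and Pgr lines, summed to 50.71 and 53.68 TPM, and the sequence of Nr3c1 is not shown. Nr2f6 was alone in its group and differs from Rxrb in the last capitalised codon. Rara and Rarg shared 27 of the 30 bases, Rara and Rarb 25, and Thra and Thrb 27. Members of different subfamilies could match as closely, with 27 for Rara and Nr4a1 and 28 for Pparg and Nr1d2, while the relatives Ppard and Pparg shared 22. Thra and Thrb thus differ widely in level with nearly the same P-box region.

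Of the 41 members, 25 reached TPM 1 or more in both libraries, the level called detected here. The background was 34.9% of all genes and 61.8% of protein-coding genes, and the members' share is close to the protein-coding one. The same background applies to the detected counts of each class, marker set and list given below. A further 3 members, Nr1h3, Nr3c2 and Nr5a2, reached TPM 1 in 1 library only, and 13 stayed under it in both. Nr2e1 and Nr2e3, receptors known from neural stem cells and photoreceptors, had no read in either library, and a count of 0 leaves room for at most 3 counts per library. The median mean TPM was 2.12 over the members, against 5.09 over protein-coding genes and 0.12 over all genes. The count of detected members depends on the level asked for: 32 reached TPM 0.5 (38.7% of all genes and 65.4% of protein-coding genes did) and 19 reached TPM 2 (31.0% and 57.3%). By counts, 35 members had 10 or more in both libraries and 17 had 100 or more, where 67.8% and 55.9% of protein-coding genes did. Together the members summed to 424.8 TPM in replicate 1 and 403.9 TPM in replicate 2.

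**Figure D1:**
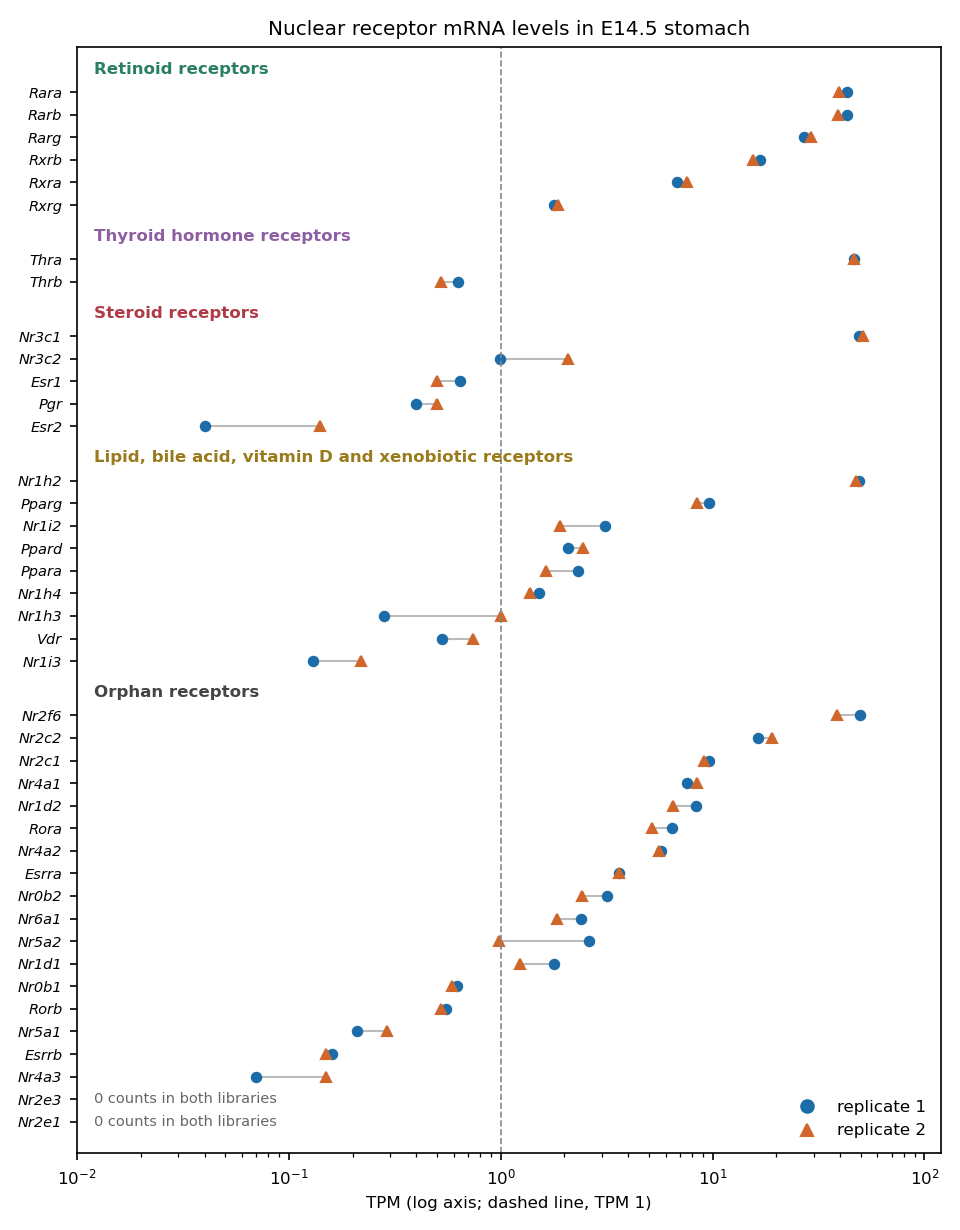
TPM of each listed nuclear receptor (log axis) in replicate 1 (circles) and replicate 2 (triangles), grouped by ligand class and ordered by mean, with a dashed line at TPM 1. Each of the 5 classes holds at least 1 receptor with a mean over 40 TPM, and the widest gaps between the libraries are at low levels.

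Retinoid receptors had the largest summed level of the 5 classes, with 138.46 TPM in replicate 1 and 132.67 TPM in replicate 2, or 135.6 ± 4.09 TPM (SD, n = 2). All 6 were detected, and they made up 32.7% of the members' mean summed TPM. Rara, which encodes retinoic acid receptor alpha, had 43.08 TPM in replicate 1 and 39.57 TPM in replicate 2. Rarb, the beta receptor and itself a known retinoic acid target, had 43.09 and 39.16 TPM. The libraries overlapped for these 2 genes, and their order cannot be told. Rarg, the gamma receptor, had 27.03 TPM in replicate 1 and 29.06 TPM in replicate 2, below both other receptors in each library.

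The retinoid X receptors, the shared partners of the class, were lower than the retinoic acid receptors. Rxrb had 16.67 TPM in replicate 1 and 15.46 TPM in replicate 2, Rxra had 6.81 and 7.55 TPM, and Rxrg had 1.78 and 1.87 TPM. The order Rxrb, Rxra, Rxrg was the same in both libraries with no overlap, and Rxrb held 66.0% and 62.1% of the RXR sum. The 3 RXR genes summed to 25.26 and 24.88 TPM, while 14 listed receptors that pair with them (RAR, thyroid hormone, PPAR, LXR, FXR, vitamin D, PXR and CAR receptors) summed to 229.22 and 220.2 TPM. Nr4a1 and Nr4a2, which can also pair with RXR, are not counted among the 14. The mRNA of these 14 was thus 9.07 times the RXR mRNA in replicate 1 and 8.85 times in replicate 2. This is a ratio of mRNA levels and says nothing of protein.

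**Figure D2:**
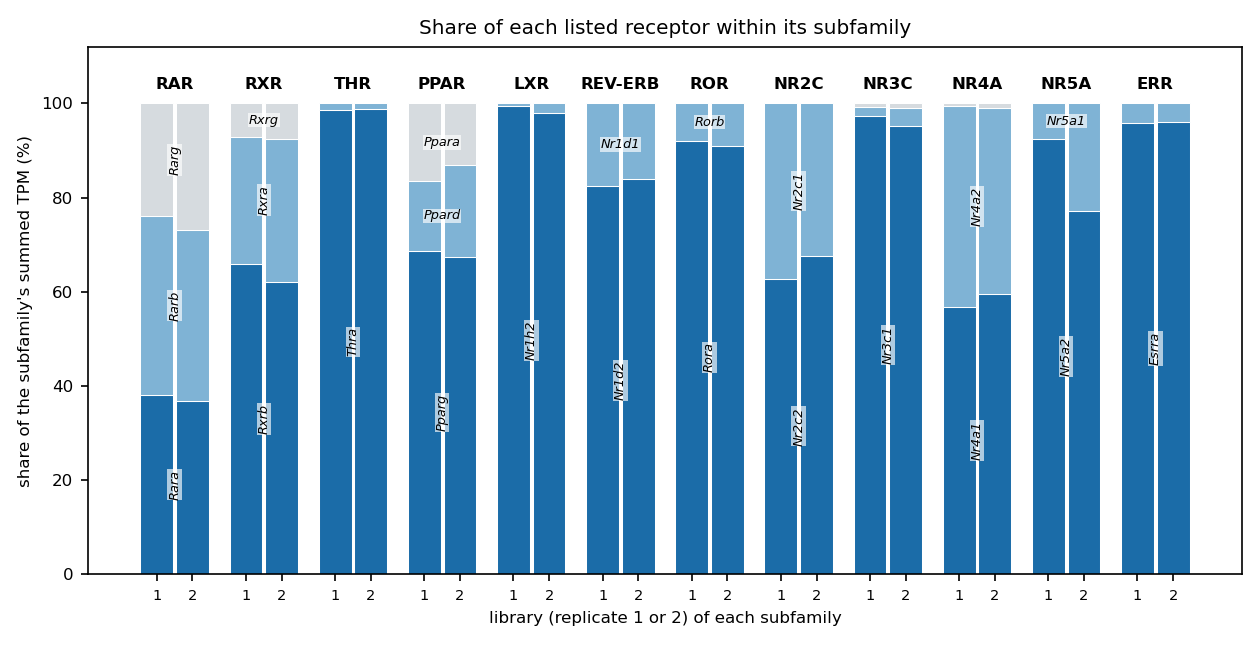
Share of each listed receptor in the summed TPM of its subfamily, with replicate 1 left of replicate 2 in each pair of stacked bars. Thra, Nr1h2, Nr3c1, Rora, Nr1d2 and Esrra each hold over 80% of their subfamily in both libraries, whereas Rara and Rarb are near equal.

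Of the thyroid hormone receptors, Thra had 46.7 TPM in replicate 1 and 46.34 TPM in replicate 2, while Thrb had 0.63 and 0.52 TPM. Thra was therefore 74.1 times as high as Thrb in replicate 1 and 89.1 times in replicate 2. Thrb rests on 62 and 55 counts, so the size of this ratio is known only roughly. In mouse the alpha gene is known for the broad embryonic pattern and the beta gene for liver, pituitary and sensory organs.

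These genes lie in 2 chromosome regions that carry copies of the same 3 receptors, which allows the copies to be set side by side. On chromosome 11 (mm10) are Thra (98740638 to 98769006, plus strand), Nr1d1 (98767932 to 98775333, minus strand) and Rara (98927818 to 98974942, plus strand). On chromosome 14 are Rarb (16430839 to 16819156, minus strand), Thrb (17660261 to 18038090, plus strand) and Nr1d2 (18204054 to 18239127, minus strand). The 3 pairs differed in 3 ways. The chromosome 11 copy was the higher one for the thyroid hormone receptors, the chromosome 14 copy for REV-ERB, where Nr1d2 was 4.70 and 5.27 times Nr1d1, and neither for the retinoic acid receptors, where Rara was 1.00 and 1.01 times Rarb.

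Steroid receptors summed to 51.39 TPM in replicate 1 and 54.32 TPM in replicate 2, and 1 of the 5 was detected. Nr3c1, the glucocorticoid receptor on chromosome 18, had 49.32 TPM in replicate 1 and 51.1 TPM in replicate 2, which was 96.0% and 94.1% of the class. It had the highest mean TPM of all 41 members, above 86.5% of protein-coding genes, and the largest counts, 3297 and 3519. Of its TPM, 40.51% in replicate 1 and 45.31% in replicate 2 was assigned to a transcript whose annotated coding sequence is incomplete. Nr3c2, the mineralocorticoid receptor, had 0.99 TPM in replicate 1 and 2.08 TPM in replicate 2. Its counts were nearly equal, 71 and 76, and the TPM values differ because the effective length behind them was 4242 bases in replicate 1 and 2038 in replicate 2. The estrogen receptors Esr1 and Esr2 and the progesterone receptor Pgr were under TPM 1 in both libraries. Esr1 had 0.64 and 0.5 TPM, Pgr 0.4 and 0.5 TPM, and Esr2 had 2 counts in replicate 1 and 8 in replicate 2.

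Receptors for lipids, bile acids, vitamin D and foreign compounds summed to 68.69 TPM in replicate 1 and 65.55 TPM in replicate 2, with 6 of 9 detected. Nr1h2, the broadly expressed liver X receptor beta that senses oxysterols, had 49.07 TPM in replicate 1 and 47.76 TPM in replicate 2, or 71.4% and 72.9% of the class. Its relative Nr1h3, the liver X receptor alpha known from liver, fat and macrophages, had 0.28 TPM in replicate 1 and 1.0 TPM in replicate 2, from 8 and 24 counts. Macrophage markers, all 6 of which were detected, summed to 175.09 TPM in replicate 1 and 168.94 TPM in replicate 2, and their part in the level of Nr1h3 was not tested.

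Among the peroxisome proliferator-activated receptors, which sense fatty acids, Pparg had 9.65 TPM in replicate 1 and 8.46 TPM in replicate 2. Ppard had 2.07 and 2.45 TPM, and Ppara 2.32 and 1.63 TPM. Pparg was the highest of the 3 in both libraries, and the order of the other 2 changed between them. Pparg is best known from fat cells, and the adipocyte markers were near 0, with Lep at 0 counts and all 4 together at 0.13 and 0.33 TPM.

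Nr1i2, the pregnane X receptor that senses foreign compounds and bile acids in liver and intestine, had 3.12 TPM in replicate 1 and 1.91 TPM in replicate 2. Nr1h4, the bile acid receptor FXR, had 1.52 and 1.38 TPM. Markers of neighbouring organs were present beside them. Intestine markers summed to 22.32 TPM in replicate 1 and 17.82 TPM in replicate 2, with 5 of 7 detected, and liver markers to 86.82 and 84.88 TPM, with 6 of 8 detected. The liver sum is mostly Apoa1, at 55.49 TPM in replicate 1 and 51.73 TPM in replicate 2, and other liver markers moved in both directions: Cps1 had 167 and 35 counts, Alb 44 and 122, Ahsg 3 and 22, and Apoa2 19 and 38. The part of these organs in the levels of Nr1i2 and Nr1h4, and in the gap of Nr1i2 between the libraries, was not tested. Vdr, the vitamin D receptor, had 0.53 and 0.74 TPM, and Nr1i3, the constitutive androstane receptor, had 0.13 and 0.22 TPM.

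Orphan receptors summed to 118.93 TPM in replicate 1 and 104.5 TPM in replicate 2, with 11 of 19 detected. Nr2f6, a COUP-TF relative that mostly represses transcription, had 49.69 TPM in replicate 1 and 38.74 TPM in replicate 2, or 41.8% and 37.1% of the class. It is the member over 40 TPM with the widest gap between the libraries. The testicular receptors Nr2c2 and Nr2c1, which despite the name are broadly expressed, came next. Nr2c2 had 16.33 and 19.12 TPM, and Nr2c1 had 9.67 and 9.14 TPM, so Nr2c2 was higher in both libraries.

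Of the clock receptors, Nr1d2 and Rora had a mean above the protein-coding median of 5.09 TPM, and Nr1d1 and Rorb a mean below it. Nr1d2, a REV-ERB repressor, had 8.37 TPM in replicate 1 and 6.48 TPM in replicate 2, and its relative Nr1d1 had 1.78 and 1.23 TPM. Rora, an activator that competes with REV-ERB for the same sites, had 6.42 TPM in replicate 1 and 5.17 TPM in replicate 2, against 0.55 and 0.52 TPM for Rorb. Nr1d1, Nr1d2, Rora and Rorb were each higher in replicate 1, beyond counting error for Nr1d2 and Rora. The time of day of collection is not given in the sources used here, and its part in these differences was not tested.

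Nr4a1 and Nr4a2 belong to a group induced within minutes by many stimuli, tissue handling among them. Nr4a1 had 7.59 TPM in replicate 1 and 8.45 TPM in replicate 2, Nr4a2 had 5.7 and 5.61 TPM, and Nr4a3 had 7 and 3 counts. The 10 immediate early genes, of which 7 were detected, summed to 192.83 TPM in replicate 1 and 162.09 TPM in replicate 2. How far handling set the levels of the Nr4a genes was not tested.

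Esrra, a regulator of mitochondrial genes, had 3.61 TPM in both libraries, and its relative Esrrb had 0.16 and 0.15 TPM. Nr0b2, a receptor without a DNA-binding domain that represses other members, had 3.16 TPM in replicate 1 and 2.43 TPM in replicate 2. Nr6a1, the germ cell nuclear factor known from early embryos and germ cells, had 2.4 TPM in replicate 1 and 1.84 TPM in replicate 2, with nearly equal counts of 173 and 175. An antisense gene, Nr6a1os, overlaps Nr6a1 and had 11.82 and 13.64 TPM. Whether counting used strand is not given in the sources used here, so reads of the overlap cannot be told apart.

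Nr5a2, a receptor of pancreas, liver and gut epithelium, had 2.6 TPM in replicate 1 and 0.98 TPM in replicate 2. Its counts were 136 and 53, a log2 ratio of replicate 1 over replicate 2 of 1.37, with a 95% exact binomial interval of 0.91 to 1.87 that covers counting error only. Pancreas markers moved the same way. Of 14 markers, 12 were detected in replicate 1 and 6 in replicate 2, and 6 of the 7 with a mean count of 100 or more were over 2-fold higher in replicate 1. Among them, Pnliprp1, a lipase relative of acinar cells, had 4774 counts in replicate 1 and 1 in replicate 2, and Gp2 was at 0 in both. The part of pancreas RNA in the level of Nr5a2 was not tested.

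The remaining orphan receptors lay under TPM 1 in both libraries. Nr5a1, which drives steroid-producing cells, had 0.21 and 0.29 TPM, and Nr0b1, its known repressor, had 0.62 and 0.59 TPM. Of 8 markers of adrenal and gonadal steroid cells 2 were detected, and all 8 summed to 7.66 TPM in replicate 1 and 7.07 TPM in replicate 2. Most of that was Inha, at 5.65 and 5.32 TPM, followed by Star, at 1.43 and 1.46 TPM. Cyp11b1 and Cyp21a1 were at 0. The photoreceptor markers Crx and Nrl were at 0, as was the photoreceptor receptor Nr2e3.

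Setting the 41 members in order of mean TPM gave 40 pairs of neighbours, and the ranges of the 2 libraries overlapped in 27 of them. Nr3c1 and Nr1h2 were apart by less than either gene's SD (lowest value of Nr3c1 49.32 TPM, highest of Nr1h2 49.07 TPM). Thra, Nr2f6, Rara and Rarb followed, each overlapping the next. A clear step came after these 6, all over 40 TPM on average, since the lowest Rarb value was 39.16 TPM and the highest Rarg value 29.06 TPM.

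The members were then compared between the 2 embryos. Ratios were taken as the log2 of replicate 1 over replicate 2, from expected counts with 0.5 added and library sizes scaled by TMM, a method that sets the typical gene to no change. Taking only members that averaged at least 100 counts, of which there were 19, 0 were over 2-fold apart in either direction, where the background was 0.298% of the 12761 genes past that filter. With 1 library on each side no test was run on any gene. The median size of the log2 ratio was 0.13 over these members and 0.10 over all such genes.

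The widest ratio among the 19 was that of Nr1i2, with 129 counts in replicate 1 and 84 in replicate 2 and a log2 ratio of 0.64 (0.23 to 1.06). Nr2f6 came with 1743.77 and 1435.02 counts and a log2 ratio of 0.30 (0.20 to 0.41). For 7 of the 19 the counting interval left out 0, where the background was 34.9% of the 12761 genes, so the members' share is near that of all genes. Such an interval says that the 2 libraries differ, not that any condition does. The others in that group of 7 were Nr1d2 and Rora, higher in replicate 1, and Nr3c1, Rarg and Nr2c2, lower in it, although scaling on the spike-ins, which adds 0.27 to each log2 ratio, turns the sign of these last 3.

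Nr5a2, at 2.59-fold, lies just under that filter with a mean count of 94.5, so the count of 0 depends on where the filter is set. With the filter lowered to a mean count of 10, 2 members were over 2-fold apart, where the background was 3.6% of genes. These were Nr5a2 and Nr1h3, whose log2 ratio was -1.51 (-2.93 to -0.36). Esr2 and Nr4a3, each with a mean of 5 counts, had ratios past 2-fold whose intervals included 0. For Nr4a3 the deposited TPM even ran the other way, with 0.07 TPM in replicate 1 and 0.15 TPM in replicate 2.

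**Figure D3:**
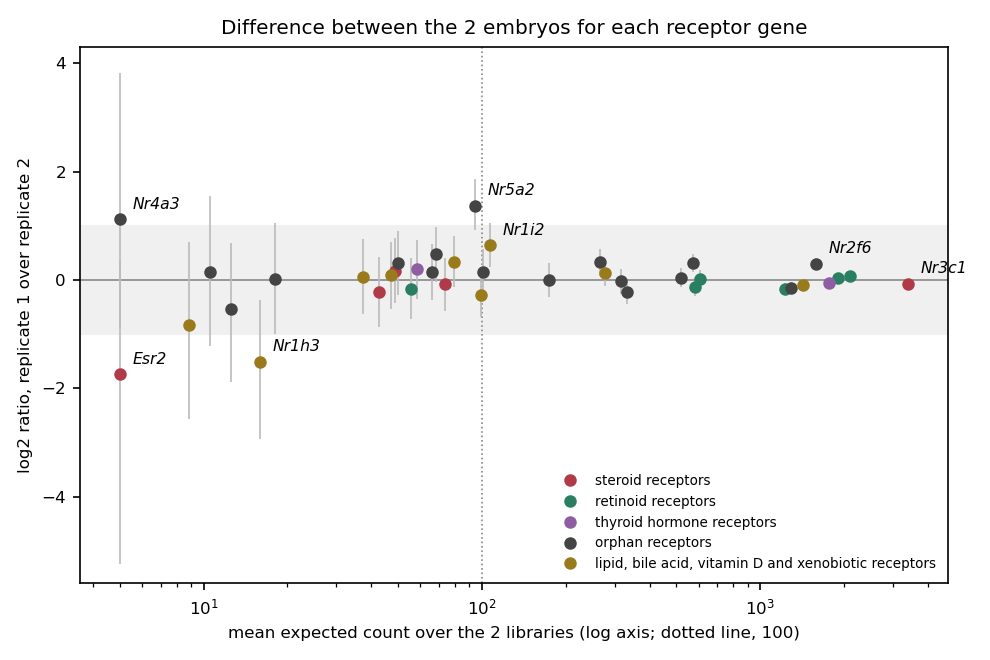
Log2 ratio of replicate 1 over replicate 2 for the 39 members with any count, against the mean expected count (log axis); bars are 95% exact binomial intervals for counting error and the shaded band marks 2-fold. Every member that averaged at least 100 counts lies inside the band, while Nr5a2 (1.37) and Nr1h3 (-1.51) lie outside it.

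Expected counts that are not whole can arise where reads are split between genes, and 5 members had them: Thra, Nr1d1, Nr1i3, Nr2c2 and Nr2f6. Each overlaps a protein-coding gene on the opposite strand. The pairs are Thra with Nr1d1, over 1075 bases at their 3′ ends, Nr1i3 with Tomm40l, Nr2c2 with Mrps25 and Nr2f6 with Ocel1. Tomm40l had 18.19 and 19.7 TPM, so the low level of Nr1i3 may depend on how reads of the overlap were split and is uncertain. Members with whole counts overlap opposite-strand genes as well. Rarb shares 4624 bases with Top2b, which had 67.6 TPM in replicate 1 and 62.35 TPM in replicate 2. Esrra shares 73 bases with Trmt112, at 115.1 and 115.8 TPM. The counts of Rarb, Top2b and Esrra were whole and show no sign of split reads, while those of Trmt112 were not whole. How reads of these overlaps were assigned is not known. Nr1d1 is uncertain in the same way as Nr1i3, since it had 78.85 counts in replicate 1 and 57.58 in replicate 2, against 1723.15 and 1821.42 for Thra.

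Several receptor genes make protein forms with different activity, and the deposited transcript tables give each transcript's percent share of its gene. Of the 25 detected members, 21 had more than 1 transcript in the tables, and the leading transcript was the same in both libraries for 17. For Thra the leading transcript was Thra-201, with 64.08% of the gene in replicate 1 and 61.1% in replicate 2. It has 492 codons and is the alpha 2 form, which does not bind thyroid hormone. Thra-202, which has 410 codons and encodes the hormone-binding alpha 1 receptor, had 27.31% and 31.08%. The 3′ part of Thra-201 is what overlaps Nr1d1, so its share depends on how those reads were assigned.

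Pparg-202, with 475 codons, held 100% of Pparg in both libraries. This is the length of the gamma 1 form, and Pparg-201, with the 505 codons of the fat-cell form gamma 2, was listed at 0%. The deposited posterior mean, a second estimate that pulls shares away from 0 and 100%, gave Pparg-202 84.59% in replicate 1 and 93.37% in replicate 2.

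Rora was the 1 detected member with several transcripts whose leading one, by mean share, was not protein coding. Rora-204, annotated as a processed transcript, had 35.81% in replicate 1 and 40.61% in replicate 2, and the coding Rora-202 had 41.21% and 25.68%. By counts, Rora-204 had 51.31 and 49.69 of the gene's 292 and 237. All transcripts of Rora not annotated as protein coding added up to 48.5% in replicate 1 and 62.7% in replicate 2. Such transcripts also took 26% and 41% of Esrra, 31.5% and 31.1% of Ppard, 32.5% and 16.2% of Nr6a1, and 14.1% and 28.2% of Nr4a2. In Esrra, Ppard and Nr6a1 these shares rest on few counts and are known only roughly. Nr6a1-203 took 17.78% in replicate 1 from 1 count, and Nr6a1-209 took 14.74% and 16.24% from 4.76 and 4.26 counts. Ppard-202 had 14.57 and 13.93 counts. The coding Esrra-201 held 96.37 of the gene's 105 counts in replicate 1 and 81.65 of 96 in replicate 2. Nr4a2-206 had more, with 30.63 and 77.89 counts. Nr2c2-203, annotated as coding but with 14 coding bases in GENCODE M21, had 45.51% of Nr2c2 in replicate 1 and 51.43% in replicate 2. That share rests on 121 and 170 counts, against 1078.33 and 1171.22 counts for the longer Nr2c2-201. Part of the gene-level TPM of these 6 receptors therefore comes from transcripts with no full receptor coding sequence. They are not the only such members. Transcripts not annotated as protein coding took 14.7% and 10.8% of Nr1h2. Rarg-204, with 14 coding bases, took 9.48% and 9.5% of Rarg, from 14 and 16 counts.

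Among the other abundant members, Nr2f6-201 had 97.93% and 97.26% of Nr2f6, and Rarb had a single transcript in the tables. Rara was split over Rara-204 (40.36% in replicate 1, 32.83% in replicate 2), Rara-202 (31.91% and 35.38%) and Rara-203 (24.23% and 24.42%), so the leading transcript changed between the libraries. Rara-204 and Rara-203 both have 462 codons and Rara-202 has 459. A new leading transcript does not by itself show a new leading protein form. Nr3c1 was split evenly between Nr3c1-203 (792 codons), with 40.9% and 45.39%, and Nr3c1-208, with 40.51% and 45.31%. Nr3c1-208 has an incomplete annotated coding sequence of 488 codons, so the TPM of Nr3c1 is not all from full-length coding transcripts. Its share rests on 603.54 and 742.62 counts, against 2154.79 and 2630.58 for Nr3c1-203. Nr1h2-204 led Nr1h2 with 34.6% and 46.48%. Rarg was shared by Rarg-201 (49.36% and 51.07%), with 458 codons, and Rarg-202 (41.15% and 39.43%), with 447 codons.

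**Figure D4:**
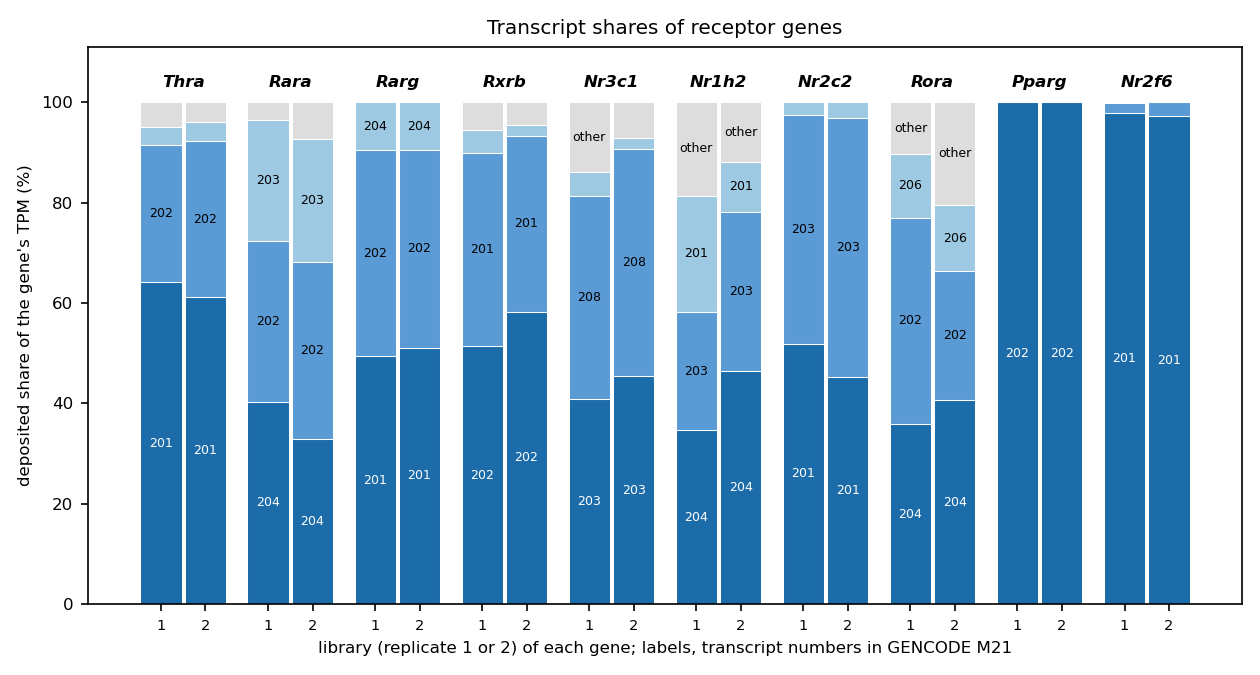
Deposited share of each gene's TPM by transcript, for 10 receptor genes, with replicate 1 left of replicate 2; numbers inside the bars are transcript numbers in GENCODE M21 and grey is the sum of all others. Thra-201 holds over 60% of Thra in both libraries, Pparg-202 and Nr2f6-201 hold nearly all of their genes, and Rara, Nr2c2 and Rora change their leading transcript.

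Receptors need cofactors, and the listed ones that matched a symbol were all detected. For these and the lists below, the background was 61.8% of protein-coding genes detected, and no list was tested against it. All 11 matched coactivators were detected, with summed levels of 217.25 TPM in replicate 1 and 212.19 TPM in replicate 2. The highest were Med1, the Mediator subunit that receptors bind (47.06 and 44.4 TPM), the acetyltransferase gene Crebbp (33.26 and 31.89 TPM) and the methyltransferase gene Carm1 (31.26 and 28.89 TPM). All 9 corepressor genes were detected too, with 454.96 and 422.24 TPM in all. Ncor1, the corepressor that unliganded thyroid hormone and retinoic acid receptors bind, had 111.23 TPM in replicate 1 and 92.56 TPM in replicate 2. It was followed by its partners Hdac3 (94.75 and 80.63 TPM) and Tbl1x (68.58 and 65.43 TPM). The 8 chaperone genes that keep steroid receptors ready to bind ligand were all detected, led by Hspa8, Hsp90ab1 and Hsp90aa1 at 1832, 1158 and 648 TPM in replicate 1 and 1572, 1099 and 583.8 TPM in replicate 2.

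Enzymes and carriers of the ligands differed by pathway. Of 12 genes for retinoid synthesis, binding and breakdown, 10 were detected. Dhrs3, which reduces retinal to retinol, had 106.85 TPM in replicate 1 and 93.22 TPM in replicate 2. Crabp1, which binds retinoic acid in the cytoplasm, had 75.69 and 93.0 TPM. Aldh1a2, the main enzyme that makes retinoic acid in the embryo, had 78.01 and 70.82 TPM.

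Of 6 thyroid hormone genes 2 were detected, the binding protein gene Crym (6.75 TPM in replicate 1 and 6.83 TPM in replicate 2) and the transporter gene Slc16a10 (4.11 and 3.75 TPM). The deiodinase genes Dio1, Dio2 and Dio3, which activate or inactivate the hormone, were under TPM 1 in both libraries. Of 8 genes for steroid and vitamin D ligands 4 were detected. The highest were Srd5a1 (18.93 and 18.73 TPM), H6pd (7.81 and 6.46 TPM) and Cyp27a1 (5.42 and 7.84 TPM), while Cyp19a1, which makes estrogens, and Cyp24a1, which breaks down vitamin D, had 0 counts.

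Known target genes are listed here for their levels only, since each is controlled by much else besides its receptor. All 8 glucocorticoid receptor targets were detected, led by Tsc22d3 (58.51 TPM in replicate 1 and 57.4 TPM in replicate 2), Sgk1 (20.25 and 16.34 TPM) and Dusp1 (15.92 and 11.97 TPM). Of 8 PPAR targets 7 were detected, led by Acadl (87.04 and 73.87 TPM), Plin2 (45.83 and 44.2 TPM) and Fabp4 (36.31 and 36.35 TPM). Of 11 targets of LXR and FXR 6 were detected, led by Srebf1 (52.88 and 49.58 TPM), Lpcat3 (44.05 and 44.48 TPM) and Mylip (7.61 and 7.17 TPM).

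The bile acid transporter gene Slc51b, an FXR target, was at 0. Of 7 xenobiotic and vitamin D receptor targets 2 were detected, S100g (12.46 TPM in replicate 1 and 8.21 TPM in replicate 2) and Trpv6 (4.31 and 4.95 TPM), both calcium transport genes. Cyp3a11 and Cyp2b10, the classical targets of Nr1i2 and Nr1i3, had 0 counts in both libraries, as did Cyp24a1. Of 11 clock genes 10 were detected, led by Nfil3 (20.29 and 18.99 TPM), Cry2 (18.2 and 18.79 TPM) and Tef (19.49 and 17.46 TPM).

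**Figure D5:**
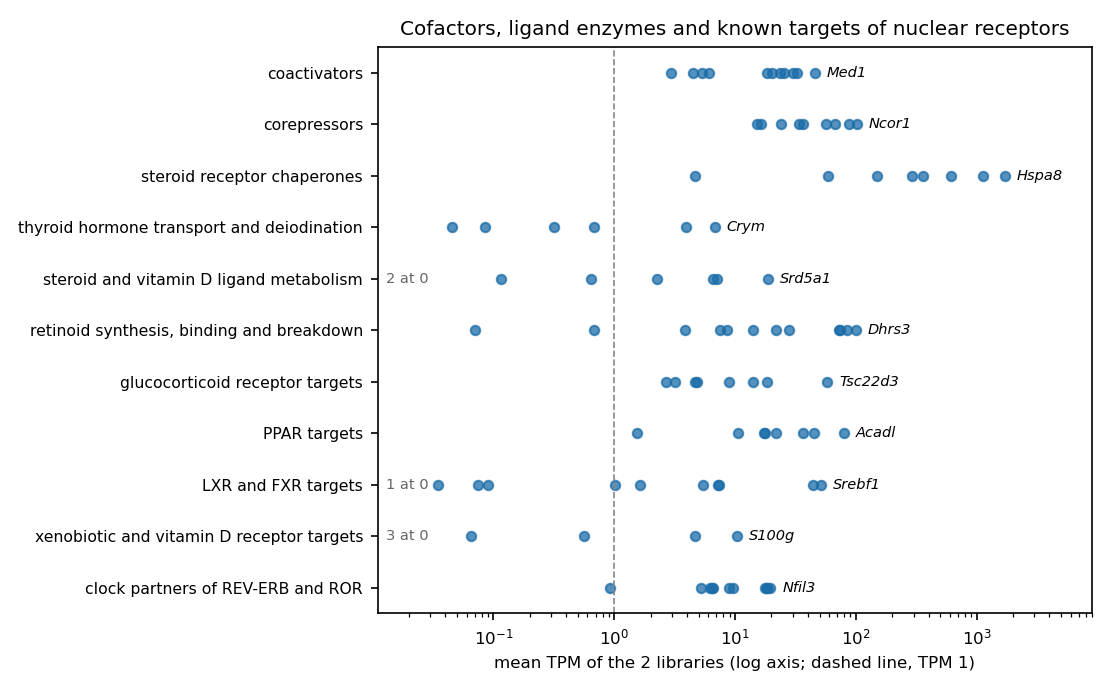
Mean TPM over the 2 libraries (log axis) of each gene in 11 lists of cofactors, ligand genes and known targets, with the highest gene named, genes at 0 counted at the left and a dashed line at TPM 1. All coactivator, corepressor and chaperone genes lie above TPM 1, whereas 3 of the 7 xenobiotic and vitamin D receptor targets are at 0.

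Promoters were searched on both strands for sites the members bind, from 250 bases before to 50 bases after each start, with RefSeq sequences of build GRCm38.p6. The direct repeat made of GTTCA, any 6 bases and GTTCA again, a form of the retinoic acid response element, occurred in 25 of 32851 promoters (0.0761%), and of the 38 members with a promoter in the table it was found in Rarb alone. Among the retinoid genes listed, that of Cyp26a1, which breaks down retinoic acid, held it as well. The lines give 30 bases around each match on the gene's strand, 5′ to 3′, with the match in capitals, and are shown because both genes are textbook retinoic acid targets.
Rarb: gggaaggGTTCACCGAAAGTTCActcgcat
Cyp26a1: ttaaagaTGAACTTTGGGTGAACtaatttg

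The Rarb window is chr14:16575506-16575535 on the minus strand, and the match lies 52 to 37 bases before the RefSeq start. Rarb-201 of GENCODE M21 starts at 16575543, upstream of the match. The Cyp26a1 window is chr19:37697769-37697798 on the plus strand, with the match on the reverse strand, 32 to 17 bases before the start. Cyp26a1 had 9.14 TPM in replicate 1 and 5.88 TPM in replicate 2. The same repeat with GGTCA as its half-site was found in 33 promoters (0.1%) and in 0 members. Repeats that mix GTTCA with GGTCA, or have another spacing, were not searched, so a promoter without a match may still hold such an element.

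The site of REV-ERB and ROR, searched as AAN followed directly by TAGGTCA, occurred in 72 promoters (0.219%) and in 0 members. It is present in the clock gene Arntl, a textbook REV-ERB target, and the line gives its window with the match in capitals.
Arntl: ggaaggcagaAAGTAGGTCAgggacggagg

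The Arntl window is chr7:113207528-113207557 on the plus strand, with the match 28 to 37 bases into the transcript, counting the start as base 1. Arntl had 9.9 TPM in replicate 1 and 9.48 TPM in replicate 2. The E-box CACGTG, read by clock factors, was in 7.15% of all promoters and in 6 of the 54 promoters of members. These belong to 5 of the 38 members with a promoter: Rara, Thrb, Esr2, Nr1i3 and Nr0b2. A match is a run of letters and does not show that a receptor is bound there.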

How the data were processed

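RNA was measured in 2 libraries of 1 group, and replicate numbers were taken from the labels. The authors deposited expected counts, which are estimated read numbers, and TPM values per gene and transcript, and percent values for each transcript's share of its gene. The build was mm10 with annotation GENCODE M4, per the submitters' processing notes and labels. The aligner, the counter and any use of strand were not named or given in the sources used here. TPM includes spike-ins, which took 12.1% of it in replicate 1 and 14.2% in replicate 2. Of 43346 identifiers, 42462 matched a GENCODE M21 symbol. Another 26248 rows with a number for a name held 6.2e-05% and 9.8e-05% of counts and were left out.

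Sizes came from TMM in edgeR 4.0.16 (R 4.3.3); expected counts were rounded to whole numbers for DESeq2 1.42.0. Tables and figures used Python 3.11.15, pandas 2.3.3 and scipy 1.17.1. The ratio step was tested on simulated data. Intervals are exact binomial (95%) and, like the limit of 3 counts for a count of 0, cover counting error only. Spread over 2 libraries holds embryo, sex and preparation differences.

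Members, classes and lists were chosen with earlier results of these data known. Members at a mean TPM of 1 or more were named with values, others by range; of each list the 3 highest genes and those at 0 were named. Other members, Cyp26a1, Arntl, Pnliprp1, Inha, Star and the liver markers were named after their values were seen. So were the transcripts of Rarg, Rxrb, Nr2c2, Esrra and Nr6a1. The coactivator Prmt1 did not match a symbol. One gene of the thyroid hormone list is not reported here. Alternatives were other thresholds, scalings, pseudocounts, the posterior mean TPM, TPM scaled to a total that leaves out spike-ins and mitochondrial genes, and single libraries.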

Additional observations from a re-analysis of the deposited data

How the results depend on the processing

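No paired analysis was possible because there is only 1 group. The number of detected members was 32 at TPM 0.5, 19 at TPM 2, 35 at 10 counts, 17 at 100 counts, 28 by posterior mean TPM (gaining Nr3c2, Vdr and Nr5a2), 27 with TPM rescaled to leave out spike-ins and mitochondrial genes, 26 in replicate 1 alone and 27 in replicate 2 alone. The median TPM over the members was 2.62 by posterior mean and 2.54 rescaled. At a mean count of 100, 0 members were over 2-fold apart under DESeq2 sizes, spike-in scaling, TPM ratios or other pseudocounts too, against 2 at a mean count of 10 and 4 with no filter. Rescaling raised the class sums to 162.6 TPM for retinoid, 56.5 for thyroid hormone, 63.5 for steroid, 80.5 for lipid and related and 134.0 for orphan receptors, by construction of a smaller total; the posterior mean gave 139.7 TPM for retinoid and 70.7 TPM for lipid and related receptors, and the cause was not tested. Spike-in scaling added 0.27 to all log2 ratios, which turned the small negative ones, such as those of Nr3c1, Rarg and Nr2c2, positive. Under 100 counts, depth limits what a ratio shows.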
